A study of Mus musculus with 4 samples.

Results

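A cassette exon is an exon that some mRNAs of a gene carry and others skip. When its length is divisible by 3, skipping it leaves the reading frame of the exons on either side in register, so that both mRNAs can be read into proteins that differ by a short stretch. The exons described here are the cassette exons of 28 to 299 nt with such a length, in RNAseq libraries of mouse brain that lacks or carries the splicing regulator PTBP2. The tables hold 228333 exon trios, each a middle exon with its left and right neighbors. Of these, 10962 trios are annotated as cassette events and give 9319 middle exons, when the trio with the most junction reads stands for its exon. Frame-preserving lengths from 28 to 299 nt were found for 4064 of them. A minimum of 20 junction reads in both libraries of a stage left 3208 exons, of which 3019 passed at E18, 3094 at P1 and 2905 at both. They lie in 2348 named genes, and 105 of them have no gene name. Lengths ran from 30 to 297 nt with a median of 99 nt, which is 33 codons.

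The 4 libraries stand for 4 groups, with 1 library each. At embryonic day 18 (E18) polyA+ RNA was taken from whole brain of NesKO embryos, which are homozygous for a *Ptbp2* allele with loxP sites around exon 4 and carry Cre from the nestin promoter, active in neural progenitors and so in the cells that descend from them, and from wild-type littermates. At postnatal day 1 (P1) it was taken from cortex of EmxKO pups, in which Cre comes from the *Emx1* locus, active in progenitors of the dorsal forebrain, and from littermates labelled wild type. All mice were of a strain given as Mixed C56Bl/6:129S2 background. Each E18 library drew on a pair of brains, while the number of P1 cortices per library is not given in the sources used here. Only the P1 libraries kept the RNA strand, so stage, tissue, Cre line and library protocol cannot be told apart between E18 and P1. Cells that the *Emx1* driver does not reach stay in the P1 cortex with their *Ptbp2* intact. Without replicates no test across mice can be made, and every p below compares the reads of libraries.

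*Ptbp2* exon 4, the targeted exon, separated the E18 libraries and only partly those of P1. Its skipping is given as the skipping reads over the sum of these and the mean of its inclusion junctions. That share was 100% in the NesKO (95% Wilson interval, 98.5 to 100%), 0.225% in the E18 wild type (0.0398 to 1.26%), 82.6% in the EmxKO (79.9 to 85.1%) and 31.5% in the P1 library labelled wild type (29.5 to 33.7%). The last library thus goes in part against its label, and every P1 difference below is a difference between a library with 82.6% and one with 31.5% skipping of exon 4. Distinct junction reads came to 49445721 and 51267564 in the E18 NesKO and wild type and to 84793098 and 85073560 in the P1 EmxKO and labelled wild type. Brain tissue was evident in all libraries, with all 6 neuron markers present in each. Gene levels are given as junction reads of the gene per 1000000 junction reads of the library (RPM), a scale that does not divide by gene length. Summed neuron markers stood at 1840 RPM in the NesKO and 2150 in its wild type, and at 2830 in the EmxKO and 2930 in the P1 library labelled wild type. The 6 listed neural progenitor markers summed to 584 and 533 at E18 and to 292 and 384 at P1, the 5 astrocyte markers to 293 and 371 and to 273 and 250, the 5 oligodendrocyte lineage markers to 92 and 114 and to 97.1 and 80.5, the 5 microglia markers to 104 and 69.3 and to 56.1 and 36.3, and the 4 endothelial markers to 174 and 194 and to 98.2 and 82.8. Between the wild-type libraries the 5 cortical projection neuron markers went from 177 at E18 to 504 at P1 (156 and 425 in the knockouts), the 4 erythroid markers from 1070 to 167 (1400 and 159), and the 7 markers of brain outside the cortex from 42.7 to 1.79 (36.9 and 0.849). *Hoxb3*, *Hoxc4* and *Pax7* were at 0 in both P1 libraries and *Pax2* also in the one labelled wild type. The sums hide differences between members. At E18 *Gfap* was higher in the NesKO than in the wild type (64.4 and 23.2 RPM), and the other astrocyte markers were lower. Neuron markers except *Stmn2* (367 and 339) were lower in the NesKO, from *Tubb3* (944 and 973) to *Snap25* (88.3 and 189) and *Syt1* (70.3 and 150). In such bulk RNA, fewer cells of a type and less RNA per cell cannot be told apart, and the part of cell makeup in the splicing differences was not tested.

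PTBP2 is an RNA-binding protein of maturing neurons, a close relative of PTBP1 in progenitors and other cells. Both bind pyrimidine-rich RNA, often in the intron next to a cassette exon, and are best known as repressors that keep the exon out of the mRNA, although binding downstream of an exon can also favor its use. Neural exons of frame-preserving length often add or remove a linker, a phosphorylation site or a short binding surface, which lets neurons alter scaffolds, channels and enzymes without losing the protein.

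Inclusion is given as PSI (percent spliced in), the share of a gene's mRNAs across that trio that hold the exon, on a scale from 0 to 100. The size criterion was a PSI difference of 10 points or more between 2 libraries. Fisher's exact test (two-sided, with Benjamini-Hochberg adjustment over all cassette exons tested) on inclusion and skipping reads was set beside it. In the text, "rose" and "fell" are used for exons past both criteria. Ratios listed at exactly 0 although reads joined the exon to both neighbors and none skipped it contradict their own reads. They concern 17 exons in at least 1 library and were treated as not estimated, which left 3003 exons tested at E18 and 3078 at P1. A further 9 or 10 exons per library were listed at 0 with reads on only 1 inclusion junction and none that skipped. Those were kept at 0, although their reads also speak for inclusion.

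The sequences of 13 exons on which the results turn are shown first, read 5′ to 3′ on the strand of the gene from the spliced transcripts of GENCODE M21 (build GRCm38, to which the coordinates of the sequences refer). In coding exons, capitals mark the bases of a codon that is split between the exon and a neighbor, and an exon without capitals begins and ends between codons. A few of the coding exons that rose at both stages come first, since inclusion of each lengthens the coding sequence without shifting its frame. *Clip2* (chr5:134504734-134504838, minus strand), *Camk2b* (chr11:5981070-5981114, minus), *Ppp3ca* (chr3:136932011-136932040, plus), *Rims2* (chr15:39517806-39517871, plus) and *Dbn1* (chr13:55476636-55476773, minus) are given in that order.
Clip2 105 nt: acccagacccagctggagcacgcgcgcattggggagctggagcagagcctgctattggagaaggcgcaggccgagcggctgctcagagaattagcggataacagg
Camk2b 45 nt: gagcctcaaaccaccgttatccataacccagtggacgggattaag
Ppp3ca 30 nt: CTactgttgaggctattgaggctgatgaaG
Rims2 66 nt: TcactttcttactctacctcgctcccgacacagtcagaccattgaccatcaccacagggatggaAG
Dbn1 138 nt: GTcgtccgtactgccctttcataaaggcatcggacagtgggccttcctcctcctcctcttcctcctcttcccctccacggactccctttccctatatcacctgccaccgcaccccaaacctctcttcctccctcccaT

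Of the exons that fell at both stages, *Syt7* (chr19:10421757-10421888, plus), *Cadm3* (chr1:173349022-173349123, minus) and *Atp6v1h* (chr1:5101070-5101123, plus) are shown, since these are coding exons of membrane and vesicle proteins.
Syt7 132 nt: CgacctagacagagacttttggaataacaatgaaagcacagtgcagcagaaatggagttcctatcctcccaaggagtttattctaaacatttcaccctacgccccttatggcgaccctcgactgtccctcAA
Cadm3 102 nt: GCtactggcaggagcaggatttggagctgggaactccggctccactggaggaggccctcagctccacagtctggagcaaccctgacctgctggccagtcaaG
Atp6v1h 54 nt: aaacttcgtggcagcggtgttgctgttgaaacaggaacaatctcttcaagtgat

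Exons whose change differed between the stages are represented by *Ank2* (chr3:127012673-127012771, minus), *Mical3* (chr6:120969355-120969492, minus) and *Ptbp1* (chr10:79860117-79860194, plus).
Ank2 99 nt: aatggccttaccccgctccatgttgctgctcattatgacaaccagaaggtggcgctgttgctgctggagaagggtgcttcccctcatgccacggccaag
Mical3 138 nt: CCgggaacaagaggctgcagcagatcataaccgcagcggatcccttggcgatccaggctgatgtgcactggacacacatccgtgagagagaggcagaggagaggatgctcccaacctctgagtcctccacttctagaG
Ptbp1 78 nt: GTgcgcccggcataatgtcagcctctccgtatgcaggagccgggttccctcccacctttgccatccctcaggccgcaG

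A length divisible by 3 does not by itself keep a protein whole, and *Ikzf4* (chr10:128643694-128643765, minus) and *Stam2* (chr2:52736131-52736319, minus) show this. Both exons are annotated in transcripts marked for nonsense-mediated decay, with an in-frame stop codon at base 33 of the 72 nt exon and at base 120 of the 189 nt exon. Each is printed from its first base to the end of that stop codon, which is in capitals.
Ikzf4 first 35 nt: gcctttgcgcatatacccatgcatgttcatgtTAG
Stam2 first 122 nt: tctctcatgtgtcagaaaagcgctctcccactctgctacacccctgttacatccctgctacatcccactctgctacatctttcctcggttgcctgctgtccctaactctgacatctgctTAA

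At E18, the loss of PTBP2 went along with more inclusion of *Camk2b*, *Scrib* and *Clip2* exons among many others, and with less inclusion of a smaller group that held *Syt7*, *Cadm3* and *Immt*. PSI was higher by at least 10 points in the NesKO for 232 of 3003 exons and lower for 123, against 7.02% and 3.96% of all 6714 cassette exons tested. With the test on reads, 74 exons rose and 25 fell (2.46% and 0.833%), beside 2.1% and 0.685% of all cassette exons. These shares lie near those of cassette exons at large. Of the exons past 10 points, 65.4% had the higher PSI in the NesKO, and the same share was 63.9% over all cassette exons. Frame-shifting cassette exons of the same lengths gave 176 with higher and 124 with lower PSI of 3103, and 44 that rose and 17 that fell. The difference between the frame classes was not tested. The median difference over the members was 0.0 points and its median size 1.9 points, so most exons had like PSI in both libraries.

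At P1, PSI was higher by at least 10 points in the EmxKO for 236 of 3078 exons and lower for 82, against 6.86% and 2.61% of all 6906 cassette exons tested. Here 116 exons rose and 26 fell, which is 3.77% and 0.845% of the members beside 2.92% and 0.695% of all cassette exons. Exons with the higher PSI in the EmxKO made up 74.2% of those past 10 points, and the same share was 72.5% over all cassette exons. The library labelled wild type held a median of 396 junction reads per exon and the EmxKO 333, against 206 and 185.5 in the E18 wild type and NesKO, and with more reads a smaller difference can pass the test. At these medians the smallest share that 3 reads allow is 0.758 and 0.901% at P1 and 1.46 and 1.62% at E18.

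Differences were most frequent among exons of middle inclusion, a pattern that the scale sets in part. An exon with PSI over 90 cannot be higher by 10 points, and one under 10 cannot be lower by 10. Counting error of PSI is also largest at middle inclusion. In the E18 wild type, PSI was under 10 in 555 exons, over 90 in 1194 and in between in 1328, with a median of 74.9 over the 3077 exons that had 20 reads there. The medians in the other libraries were 77.8 in the NesKO, 76.8 in the EmxKO and 72.2 in the P1 library labelled wild type. Among exons with a wild-type PSI from 30 to 70 at E18, 121 of 503 were higher in the NesKO and 51 lower, which is 24.1% and 10.1% beside 24.3% and 11.1% of all cassette exons of that class. From exons nearly absent in the wild type, with a PSI under 10, 9 of 538 (1.67%) were higher by 10 points, beside 34 of all 1285 (2.65%). At P1 the middle class gave 134 of 521 higher and 43 lower, or 25.7% and 8.25%, beside 24.4% and 8.28% of all cassette exons of that class. The lowest class at P1 gave 11 of 604 higher, or 1.82% beside 1.77%.

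**Figure D1:**
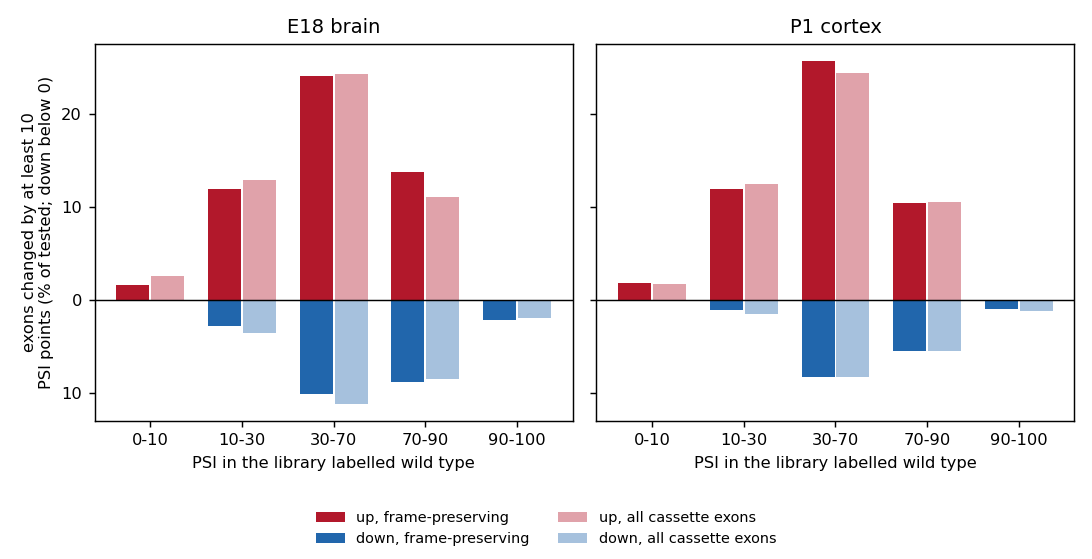
Share of exons tested whose PSI was higher (above 0) or lower (below 0) by at least 10 points in the knockout, by PSI class in the library labelled wild type (x axis), at E18 (left) and P1 (right). Red bars count higher and blue bars lower PSI, dark bars stand for frame-preserving exons of 28 to 299 nt and pale bars for all cassette exons, and the tallest bars lie in the class from 30 to 70 at both stages, 24.1% and 25.7%.

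The NesKO and EmxKO comparisons share no library, so the value at one stage can be read for exons called at the other. Of the 73 exons that rose at E18 and were tested at P1, 68 had the higher PSI in the EmxKO and 41 were past 10 points, with a median difference at P1 of 11.4 points. Of the 25 that fell at E18, 19 had the lower PSI in the EmxKO and 11 were past 10 points, with a median of -7.0 points. In turn, 102 of 114 exons that rose at P1 had the higher PSI in the NesKO, and 21 of 25 that fell at P1 had the lower one. Cassette exons at large gave like shares, since 126 of 138 that rose at E18 had the higher PSI in the EmxKO with 76 past 10 points, and 36 of 46 that fell had the lower one with 19 past 10 points. Of those called at P1, 176 of 197 and 37 of 47 had the same sign at E18. Over all 2890 exons tested at both stages Pearson's r between the differences was 0.44 and Spearman's coefficient 0.24, beside 0.39 and 0.22 over all 6442 cassette exons. It is a description across exons, which share their libraries and their read depth and are not independent replicates.

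Past 10 points in the same direction at both stages were 77 exons with higher and 24 with lower PSI, or 2.66% and 0.83% of 2890, beside 2.28% and 0.683% of the 6442 cassette exons tested at both. With the test on reads at both stages, 39 exons rose and 10 fell, which is 1.35% and 0.346% beside 1.07% and 0.233%. Overlapping exons that differ in a splice site were counted apart, and joined they make 38 and 8 sites. The 39 exons that rose had median PSI of 75.1 in the NesKO, 43.3 in the E18 wild type, 71.9 in the EmxKO and 43.5 in the P1 library labelled wild type. In the 10 that fell the medians were 43.3, 69.7, 52.6 and 67.9. A larger change at E18 than at P1 was seen in 30 of the 39 and 8 of the 10. These counts cannot show a stage effect, since the exons were chosen by the test on reads at both stages. Passing it takes a larger difference with fewer reads. Median junction reads per member were 185.5 and 206 in the E18 NesKO and wild type. They were 333 and 396 in the P1 EmxKO and library labelled wild type. That last library also had a skipping share of 31.5% for the targeted *Ptbp2* exon, and the part of either limit was not tested.

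**Figure D2:**
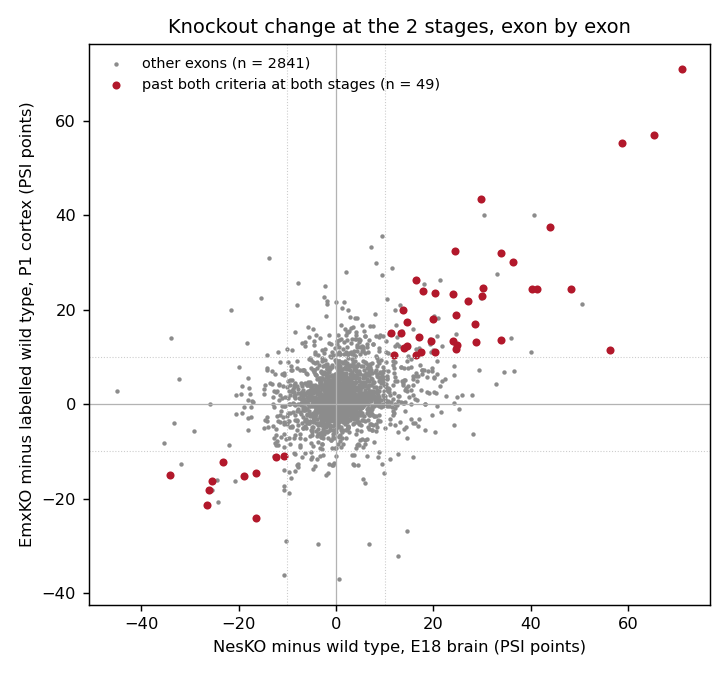
PSI difference between knockout and wild-type library for the 2890 frame-preserving exons tested at both stages, at E18 (x axis) and at P1 (y axis), in PSI points, with dotted lines at 10 points. Exons past 10 points and the test on reads at both stages (39 up, 10 down) are large red points, and most of the others lie near the origin.

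The largest rise shared by both stages was that of a 126 nt exon of *Sympk*, which encodes symplekin, a scaffold of the mRNA 3′ end processing machinery. It lies at chr7:19613246-19613371 (mm9, plus strand) and is annotated as untranslated exon 2, before the start codon. PSI was 72.0 in the NesKO, 0.9 in the E18 wild type, 71.0 in the EmxKO and 0.2 in the P1 library labelled wild type, over 587 to 2097 junction reads. The knockouts thus had the exon in most mRNAs across this trio and the other libraries in almost none, a difference of 71.1 points at E18 (adjusted p = 1.1e-195, Fisher's exact test) and 70.8 at P1 (4.3e-232). Junction reads over the whole gene also differed, at 490 and 286 RPM in the E18 NesKO and wild type and 484 and 290 at P1.

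Exons with a stop codon of their own came next. *Ikzf4*, a zinc-finger transcription factor of the Ikaros family, had PSI of 75.1 and 9.7 in NesKO and wild type at E18 and of 69.1 and 12.2 at P1, over 69 to 104 reads (adjusted exact p = 2.4e-10 and 8e-09). *Stam2*, an adaptor that sorts ubiquitinated cargo at endosomes, had PSI of 84.1 and 25.3 at E18 and of 62.3 and 7.1 at P1, with 36 reads in the E18 wild type and 169 to 536 in the others (adjusted exact p = 4.3e-09 and 1.1e-46). For both genes the exon with the stop was thus in most mRNAs across the trio in both knockouts. Over the whole gene, *Ikzf4* had 20.1 and 21.4 RPM in NesKO and wild type at E18 and 15.6 and 14.6 at P1. *Stam2* had 36.4 and 35.5 at E18 and 67.2 and 70.8 at P1.

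Exons of scaffold and cytoskeleton genes were among the other large shared rises. *Scrib*, a polarity scaffold with PDZ domains, had PSI of 78.6 in the NesKO, 34.7 in the E18 wild type, 75.8 in the EmxKO and 38.3 in the P1 library labelled wild type for its 84 nt coding exon 29 (adjusted exact p = 4.4e-22 and 1.5e-25). *Clip2*, a linker of microtubule ends in neurons, had PSI of 94.5, 64.4, 91.4 and 66.9 in the same order for a 105 nt exon with 1818 to 3842 reads (3.6e-62 and 2.7e-78). *Fmnl1*, an actin-nucleating formin, went from 64.2 to 93.9 at E18 and from 47.9 to 91.3 at P1. That 99 nt exon is the last but one of its transcript and holds a stop codon at base 90.

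Other exons of the 12 with the largest shared rise belong to enzymes and to proteins of RNA export and the Golgi. *Thoc5*, of the THO complex in mRNA export, had PSI of 82.6 in the NesKO, 34.3 in the E18 wild type, 80.8 in the EmxKO and 56.4 in the P1 library labelled wild type for a 36 nt exon. *Golga2*, which encodes the Golgi matrix protein GM130, had 68.1, 26.8, 56.9 and 32.5 for an 81 nt exon, and *Alg9*, a mannosyltransferase of N-glycan assembly, had 26.3, 1.8, 33.5 and 1.1 for a 102 nt exon. *Cnnm3*, of a family tied to magnesium transport, had 73.7, 39.9, 71.9 and 40.0 for a 99 nt exon with a stop codon at base 48. *Braf*, the kinase that activates MEK, had 55.4, 15.1, 47.4 and 23.0 for a 120 nt exon, but only 34 to 105 reads lie behind each value and its adjusted p was 0.04 and 0.024.

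Falls at both stages were fewer and smaller. *Cadm3*, a neuronal adhesion molecule of the immunoglobulin superfamily, had PSI of 32.2 in the NesKO, 66.4 in the E18 wild type, 32.1 in the EmxKO and 47.2 in the P1 library labelled wild type for a 102 nt exon near its start (adjusted exact p = 1.1e-07 and 2.6e-16). *Syt7*, a calcium sensor of slow vesicle fusion, had 29.1, 52.4, 53.6 and 65.9 for a 132 nt exon, and *Atp6v1h*, a subunit of the vacuolar proton pump, had 10.6, 27.1, 29.9 and 54.0 for a 54 nt exon. In these last genes both P1 libraries lay above the E18 library of the same genotype.

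*Immt*, which encodes mitofilin of the mitochondrial inner membrane, gave 3 of the 10 exons that fell, but these are forms of 1 exon at chr6:71802724-71802861 (mm9, plus strand) that differ in the splice site at its start and share its end. The 138 nt form had PSI of 41.1, 67.3, 51.6 and 69.9 in NesKO, E18 wild type, EmxKO and the P1 library labelled wild type, the 105 nt form 56.6, 82.0, 56.4 and 72.6, and the 102 nt form 31.7, 42.4, 28.2 and 39.1. These forms share nearly all of their skipping reads and of the reads at their common end. Their PSI values and tests are thus not independent, and each PSI leaves out mRNAs with the other forms. With PSI from junction reads the difference of the 102 nt form was -32.5 points at E18 and -23.7 at P1 in place of -10.7 and -10.9, and that of the 138 nt form at E18 was -42.5 in place of -26.2. *Tpd52l2* (42 nt; 45.6, 72.1, 65.9 and 87.3), *Med15* of the Mediator complex (120 nt; 55.7, 74.6, 58.5 and 73.8) and *Rab3ip*, an activator of Rab8 (96 nt; 65.6, 82.1, 62.2 and 76.8), fell as well. No read joined the *Tpd52l2* exon to its right neighbor in any library, so its inclusion rests on the left junction alone. For every exon that fell at both stages the adjusted p was between 3.3e-18 and 0.022 at E18 and between 4.4e-19 and 0.0035 at P1.

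**Figure D3:**
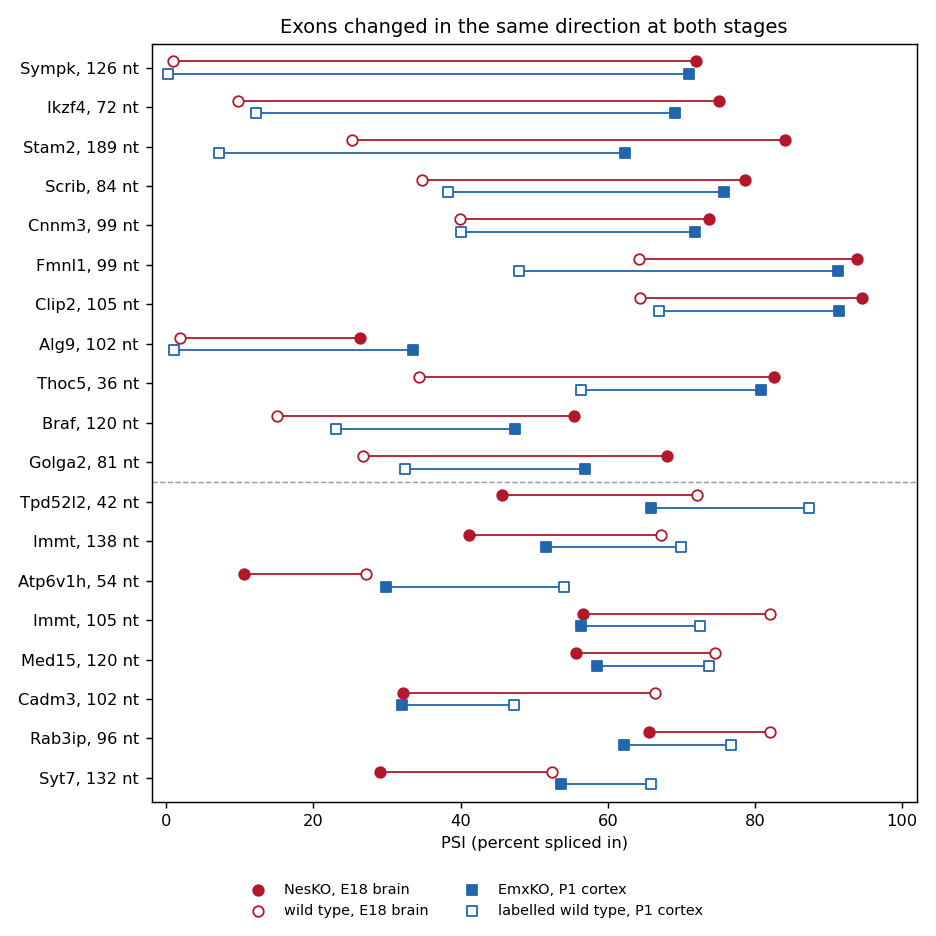
PSI in each of the 4 libraries for 11 of the 12 frame-preserving exons with the largest shared rise (above the dashed line) and the 8 with the largest shared fall (below it). Filled symbols stand for the knockout and open ones for the library labelled wild type, red circles for E18 brain and blue squares for P1 cortex, 1 library each, so that there are no error bars. *Sympk* spans from 0.9 to 72.0 at E18, and in every row above the line the filled symbols lie right of the open ones of the same stage.

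Of the other exons that rose at both stages, several are named here after their values were seen. *Mcf2l*, an activator of small GTPases, had a 93 nt and an 84 nt form of 1 exon with PSI of 86.5 and 80.9 in the NesKO, 61.9 and 53.8 in the E18 wild type, 87.3 and 80.7 in the EmxKO and 68.4 and 58.9 in the P1 library labelled wild type. *Cltb*, a clathrin light chain, had 84.1, 63.7, 59.0 and 35.6 for a 54 nt exon with 2943 to 5840 reads. *Kif21a*, a kinesin motor, had 66.6, 42.5, 53.4 and 30.2 for a 39 nt exon. *Grin1*, the obligatory NMDA receptor subunit, had 33.3, 21.5, 39.4 and 29.0 for a 63 nt exon (adjusted exact p = 6.7e-05 and 0.0021). Each of these had the higher PSI in the knockout at its stage.

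Genes grouped by function were tested through their frame-preserving exons, and the groups were chosen with earlier results of these data known. Over the 9 groups, between 8.47% (kinases and phosphatases, 5 of 59) and 21.7% (vesicle release and endocytosis, 13 of 60) of exons were past 10 points at E18, against 11.8% of all members and 11% of all cassette exons. The median differences of the groups ran from 0.0 to 0.6 points at E18 and from 0.0 to 1.5 points at P1, where the medians of all members were 0.0 and 0.2. The exons of a group that rose or fell are to be read against 2.46% and 0.833% of all members at E18 and 3.77% and 0.845% at P1.

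In the postsynaptic group, 1 of 44 exons rose at E18 and 4 of 45 at P1, and none fell. *Dbn1*, which encodes the actin-binding spine protein drebrin, had PSI of 24.0 in the NesKO, 3.6 in the E18 wild type, 14.2 in the EmxKO and 3.1 in the P1 library labelled wild type for the 138 nt exon at chr13:55577997-55578134 (mm9, minus strand). With 9133 to 11964 reads per library its interval on junction reads was narrow, 20.4 to 22.2% for the NesKO against 2.7 to 3.4% for the E18 wild type, and the change was larger at E18 than at P1 (adjusted p = 0.0074, Wald chi-square test of the difference of log odds ratios on reads). In *Dlg4*, which encodes the postsynaptic scaffold PSD-95, a 66 nt exon, which overlaps a 165 nt form with the same start, had PSI of 91.1, 93.1, 85.2 and 85.7. That difference of -2.0 points at E18 was past the test on 6254 and 4171 reads (adjusted exact p = 0.036) but far under 10 points.

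In the group of vesicle release and endocytosis, 4 of 60 exons rose and 1 fell at E18, and 5 of 63 rose and 1 fell at P1. The fall was *Syt7* at both stages. *Rims2*, an active zone protein that tethers vesicles and channels, had PSI of 88.5 in the NesKO, 54.6 in the E18 wild type, 87.4 in the EmxKO and 73.9 in the P1 library labelled wild type for a 66 nt exon (adjusted exact p = 1.1e-14 and 0.0084). Adhesion and guidance genes gave 2 that rose and 1 that fell of 66 at E18, and 5 and 3 of 67 at P1. *Ctnna2*, the neuronal alpha-catenin, had 96.0, 73.7, 96.5 and 91.2 for a 144 nt exon, a rise of 22.3 points at E18 and a difference of 5.3 points at P1 (adjusted Wald chi-square p = 3.9e-05 for the difference between stages).

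Among channels, pumps and receptors 3 of 43 exons rose at E18 and 2 of 47 at P1, with none that fell. In kinases and phosphatases, 3 of 59 rose at E18 and none fell, and 3 of 61 rose and 1 fell at P1. *Camk2b*, a calcium/calmodulin-dependent kinase of synapses, had 97.1, 40.9, 99.3 and 87.9 for the 45 nt exon at chr11:5881073-5881117 (mm9, minus strand). This rise of 56.2 points at E18 (adjusted exact p = 1.4e-137) and 11.4 points at P1 (1.8e-75) left almost every mRNA with the exon in both knockouts, whereas the wild-type libraries differed by 47.0 points from each other.

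Among regulators of small GTPases 3 of 61 rose at E18 and none fell, and at P1 6 of 64 rose and 1 fell. *Tbc1d5*, of endosome-to-Golgi transport, had PSI of 80.9, 50.9, 85.2 and 62.3 for a 66 nt exon (adjusted exact p = 0.036 and 2e-06). The cytoskeleton group, the largest with 119 exons, had 6 that rose and 3 that fell of 115 at E18 and 11 that rose and 1 that fell of 118 at P1. In RNA processing 2 of 49 rose at E18 and none fell, and 3 of 49 rose and 1 fell at P1. Both rises at E18 were in *Puf60*, a splicing factor that binds pyrimidine tracts. Its 51 nt coding exon had 58.6, 41.0, 68.0 and 61.7 and its 120 nt exon, annotated in a decay transcript with the start codon at base 63, had 89.8, 61.0, 37.6 and 24.4, with 45 reads in the E18 wild type. Chromatin and transcription genes gave 2 that rose and 1 that fell of 80 at E18 and 4 that rose of 80 at P1. *Ncor1*, a corepressor of nuclear receptors, had 67.9, 52.1, 49.0 and 43.8 for a 99 nt exon, and *Zmynd8*, a reader of histone marks, 73.4, 85.8, 78.3 and 87.0 for an 84 nt exon (adjusted exact p = 0.037 at E18 and 0.0004 at P1).

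**Figure D4:**
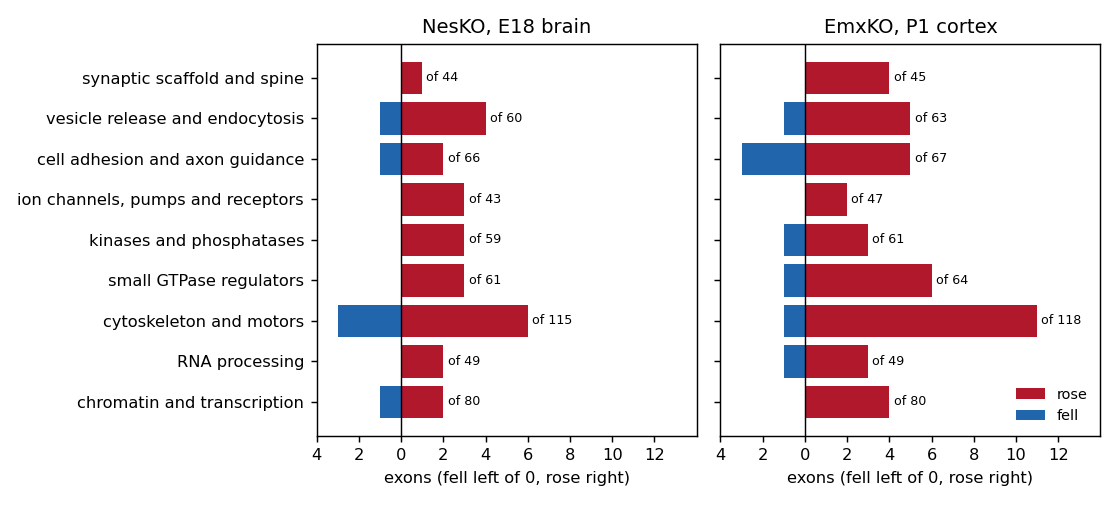
Number of frame-preserving exons that rose (red, right of 0) or fell (blue, left of 0) by at least 10 points with adjusted Fisher p under 0.05 in 9 groups of genes, at E18 (left) and P1 (right), with the number tested beside each bar. The longest bars are those of cytoskeleton and motors, 6 of 115 and 11 of 118, the group with the most exons.

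The genes that the study names for splicing hold 48 frame-preserving exons in 21 genes, and since the study chose them on mice of this kind, their counts are not independent evidence. At E18 6 of 42 rose and none fell, and at P1 7 of 44 rose and none fell, beside the shares of all members given above, with medians of 0.7 and 0.0 points. *Ppp3ca*, the catalytic subunit of calcineurin, had PSI of 62.7 in the NesKO, 44.8 in the E18 wild type, 67.5 in the EmxKO and 43.5 in the P1 library labelled wild type for a 30 nt exon (adjusted exact p = 5.7e-17 and 7.6e-27). *Agrn*, which encodes agrin of synapse assembly, had 18.8, 14.7, 48.5 and 33.3 for a 33 nt exon, which passed only at P1 (0.1 and 5.6e-15). A 30 nt exon of the adhesion molecule *Ncam1* had 8.4, 16.8, 5.2 and 8.5, a difference of -8.4 points at E18 and -3.3 points at P1 that lay under 10 points (1.9e-12 and 0.00053). Exons of *Gphn* (108 nt; 11.1, 9.1, 10.2 and 12.6), *Erc1* (132 nt; 14.4, 17.4, 14.5 and 18.9), *Dst*, *Bin1* and *Arhgef7* differed by at most 5.1 points at each stage where tested. *Numb* (33 nt; 63.0, 27.0, 36.3 and 22.4) and *Sorbs2* (57 nt; 99.9, 59.8, 99.3 and 88.4) had large differences at E18 that did not pass the test, with 20 to 34 reads per E18 library (adjusted exact p = 0.51 and 0.37). In *Camk2b*, the 129 nt exon had PSI of 1.7 to 3.2 and the 33 nt exon 0.1 in every library, so that of this gene's tested exons the 45 nt exon alone rose. A 75 nt exon of the gene was not estimated, since every library listed it at 0 with inclusion reads only. These reads numbered 630 and 133 in the E18 NesKO and wild type, and 3194 and 1739 in the P1 EmxKO and labelled wild type. Whether this exon changed could not be told, and the paper describes a pair of *Camk2b* exons with raised inclusion in the knockout at E18.

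The Wald chi-square test on reads found 54 of 2890 exons whose log odds ratio differed between the stages at an adjusted p under 0.05, beside 1.46% of the 6442 cassette exons tested at both. Of these, 22 had the more positive PSI change at E18 and 32 at P1. Past 10 points at E18 alone were 18 and at P1 alone 11, while 4 were past 10 points in the same direction at both and 1 in opposite directions. Since stage, tissue, Cre line, protocol and the exon 4 content of the control library all differ, the source of a difference cannot be told apart.

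The difference was most positive at E18 relative to P1 in *Thoc5* (above), *Ptbp1*, *Ank2* and *Lsm14a*. The 99 nt exon 17 of *Ank2*, which encodes the membrane adaptor ankyrin-B, had PSI of 92.2 in the NesKO, 59.3 in the E18 wild type, 60.5 in the EmxKO and 56.3 in the P1 library labelled wild type, so the NesKO stood above the other 3 (32.9 points at E18, 4.2 at P1, adjusted Wald chi-square p = 2e-17). In *Ptbp1*, the relative of *Ptbp2*, the pattern was another. Its 78 nt exon at chr10:79322862-79322939 (mm9, plus strand) had 47.9, 47.3 and 43.3 in the NesKO, E18 wild type and EmxKO but 80.4 in the P1 library labelled wild type, a difference of 0.6 points at E18 and -37.1 points at P1 (adjusted Wald chi-square p = 2e-17). The same library had the highest *Ptbp1* level, 252 RPM against 112, 85.4 and 111. *Lsm14a*, a component of cytoplasmic RNA bodies, gave a like picture with PSI of 70.5, 74.3, 67.1 and 96.7 for a 57 nt exon that holds a stop codon at base 22. In *Ptbp1* and *Lsm14a* the P1 library labelled wild type is the one that stands apart, and no other library of this group was there to set beside it.

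The opposite side, with the more positive change at P1, was led by 4 exons. *Mical3*, an actin-oxidizing monooxygenase, had PSI of 87.7 in the NesKO, 80.5 in the E18 wild type, 76.0 in the EmxKO and 42.8 in the P1 library labelled wild type for a 138 nt exon, which is 7.2 points at E18 and 33.2 at P1 (adjusted Wald chi-square p = 6.9e-05). A 30 nt exon with no gene name at chr7:31349493-31349522 (mm9, plus strand) had 90.2, 92.6, 78.2 and 55.5. Its inclusion rests almost wholly on the left junction, with 0, 1, 0 and 0 reads on the right one in the same order. *Ube2d-ps*, annotated as noncoding and similar in name to ubiquitin-conjugating enzyme genes, so that reads from its relatives may count here, had 58.5, 49.1, 86.2 and 50.7 for a 63 nt exon. *Rgs8*, a regulator of G-protein signaling, had 60.7, 79.1, 77.0 and 64.1 for a 129 nt exon with the start codon at base 104. It was lower in the NesKO at E18 (adjusted exact p = 0.0037), whereas its P1 difference of 12.9 points did not pass (0.58).

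**Figure D5:**
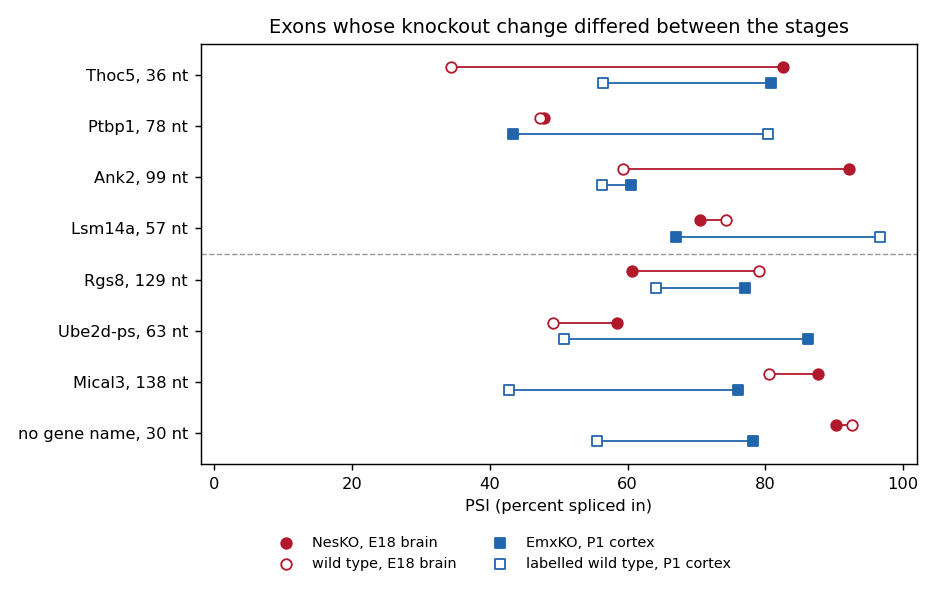
PSI in each of the 4 libraries for the 8 frame-preserving exons with the largest difference between the E18 and P1 changes among those with an adjusted Wald p under 0.05. Above the dashed line the E18 change is the more positive, below it the P1 change. Filled symbols stand for the knockout, open ones for the library labelled wild type, and *Ptbp1* shows 3 libraries from 43.3 to 47.9 and the P1 library labelled wild type at 80.4.

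More exons were past 10 points between the libraries labelled wild type, 662, than between either and its knockout, 355 and 318. Between E18 brain and P1 cortex PSI was higher at P1 by at least 10 points in 286 of 2984 exons and lower in 376, against 9.02% and 11.9% of all 6693 cassette exons. With the test on reads 163 rose and 226 fell, or 5.46% and 7.57% beside 4.74% and 6.57%. This comparison uses the control libraries of both knockout comparisons and cannot be set against them as independent. The largest rises were in an exon with no gene name (66 nt, chr16:31314485-31314550 in mm9, minus strand; 38.2 at E18 and 90.2 at P1), *Fbf1* of cilia (96 nt, before the start codon; 35.1 and 84.4), *Camk2b* (45 nt; 40.9 and 87.9), the splicing regulator *Mbnl1* (54 nt; 53.8 and 96.8, with 35 reads at E18) and *Dmtn*, an actin-bundling protein (75 nt; 15.8 and 56.4). In the unnamed 66 nt exon, the junction with the right neighbor held 6 reads at E18 and 0 at P1, so its inclusion rests on the left junction. Falls were led by *Rims1* of the active zone (84 nt; 72.8 and 14.5), *Plch1*, a phospholipase C (60 nt; 98.4 and 41.8 on 26 reads each), *Sphkap* (87 nt; 73.9 and 18.7), *Npcd* (291 nt; 80.4 and 26.7) and *Gm11110* (99 nt; 58.5 and 8.7). Apart from *Camk2b*, none of these 10 exons passed the test on reads between knockout and wild type at either stage, and *Plch1* and *Gm11110* lacked 20 reads in the NesKO.

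What the exons encode was read from the annotation, which the rule did not use. Of the 3208 exons 2334 (72.8%) lie in coding sequence, 245 are untranslated, 171 hold a start or stop codon, 174 hold one in a transcript marked for decay, 134 are found in noncoding transcripts only and 111 could not be matched to a transcript. A further 26 are untranslated in a transcript marked for decay, 9 are a coding part of one and 4 matched several places. Coding exons rose in 53 and fell in 16 of 2215 at E18 (2.39% and 0.722%) and rose in 88 and fell in 24 of 2237 at P1 (3.93% and 1.07%). Over all members these shares were 2.46% and 0.833% at E18 and 3.77% and 0.845% at P1. All cassette exons gave 2.1% and 0.685% at E18 and 2.92% and 0.695% at P1. Past 10 points at E18 were 11.9% of coding exons, 15.5% of untranslated ones and 13.2% of the 174 with a start or stop codon in a decay transcript, and at P1 10.7%, 8.55% and 6.59%. The same share over all cassette exons was 11.0% at E18 and 9.47% at P1. Exons that begin between codons were the most frequent among coding exons (1079 of 2334, 46.2%), followed by those that begin after the first base (873) and the second base (382) of a codon. At E18 12.4%, 12.0% and 10.5% of these were past 10 points, and at P1 10.2%, 11.2% and 10.9%.

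The share past 10 points by length was not tested. Of exons of 60 nt or less, 14.9% were past 10 points at E18 and 13.9% at P1, against 11.8% and 10.3% of all members and 11.0% and 9.47% of all cassette exons. The shares of the classes from 61 to 90, 91 to 120, 121 to 150, 151 to 200 and 201 to 299 nt were 11.1%, 12.4%, 10.6%, 8.04% and 12.4% at E18 and 11.0%, 10.5%, 6.91%, 9.69% and 4.85% at P1, with no steady order at either stage. The shortest members, of 30 nt, gave 8 with higher and 2 with lower PSI of 38 at E18, and exons of 27 nt, just outside the rule, 7 and 1 of 52. At the other end, none of 3 exons of 297 nt and not the 1 exon of 300 nt was past 10 points at either stage. Exons that rose had a median length of 88.5 nt at E18 and 84.0 nt at P1, beside 99.0 nt over all members tested. Their upstream introns had medians of 1495.5 and 1945.5 nt and their downstream introns of 2169.0 and 2137.5 nt, against 1967.0 and 2000.5 nt and 2053.0 and 2086.0 nt over all members tested.

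Pyrimidine-rich motifs were counted within the exons, on the transcript's strand alone, since intron sequence was not analysed here. The hexamer CTCTCT was found in 12.3% of 73 exons that rose at E18 (9 exons) and in 6.25% of 112 that rose at P1 (7 exons). Its share was 4.86% and 4.79% of all members tested and 5.33% and 5.29% of all cassette exons with a sequence. Among all cassette exons that rose, CTCTCT was in 12.6% at E18 and 5.64% at P1. Among frame-shifting exons that rose, CTCTCT was in 14.6% and 3.64%, so the E18 share is not particular to the members. TCTT, which can overlap it, was in 32.9% and 40.2% of those that rose and in 34.2% and 34.8% of the members. TTCTCT was in 2.74% and 5.36% of those that rose and in 5.07% and 5.06% of the members. Median pyrimidine content was 51.5% and 51.6% in exons that rose, 47.8% and 49.2% in those that fell and 47.9% in all members tested. TGCATG, the motif of RBFOX proteins, was in 2.74% and 2.68% of those that rose, beside 2.65% and 2.56% of the members. A match is a description of letters and not a site.

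Most genes had a single frame-preserving exon, 1808 of 2348, and 540 had more. In *Ank2* a second 99 nt exon at chr3:126666301-126666399 (mm9, minus strand) fell from 59.1 in the E18 wild type to 39.8 in the NesKO (adjusted exact p = 1.8e-13), while the 99 nt exon shown above rose from 59.3 to 92.2.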

How the data were processed

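Each group was 1 library. With SpliceTrap, which maps reads to annotated sets of neighboring exons, the authors deposited for each trio an inclusion ratio as a fraction from 0 to 1, before and after correction, and the counts of reads on its 3 junctions. The submitters' processing notes also name CASAVA, TopHat, Cufflinks and build mm9, and versions are not given in the sources used here. PSI is the corrected fraction times 100. Genes and exon sequence came from GENCODE M21 by exon and intron lengths, with no conversion of coordinates. An exon needed 20 junction reads in both libraries compared. Wilson intervals (95%), the limit of 3 reads, Fisher's exact test on the rounded mean of the inclusion junctions against the skipping junction, and the Wald chi-square test (0.5 added to each count) were computed with Python 3.11.15, NumPy 2.4.6, pandas 2.3.3 and SciPy 1.17.1, figures with Matplotlib 3.10.9. These cover counting error only, since PCR copies are not independent molecules. Alternatives changed the read minimum, the ratio, the trio, the cutoff and the treatment of zeros.

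The members and gene lists were chosen with earlier results of these data known. Named exons were the 12 that rose and 8 that fell most past 10 points and the test at both stages, ranked by the smaller of both changes; the 4 and 4 with the largest difference between stages past the Wald test; the 5 and 5 with the largest change between the wild-type libraries past the test; the 2 with the largest change at E18 past the test in each gene group; and exons of genes the study names for splicing. Of 228333 trios 207487 matched a gene by exon and both introns. Some named exons and sequences are not reported here.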

Additional observations from a re-analysis of the deposited data

Results flagged for a closer look

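The knockout change differed between E18 brain and P1 cortex, by the Wald test on junction reads, in 12 of the exons named above. In PSI points, the E18 change minus the P1 change was 23.9 for *Thoc5* (36 nt), 37.7 for *Ptbp1* (78 nt), 28.7 for *Ank2* (99 nt), 25.8 for *Lsm14a* (57 nt), 17.0 for *Ctnna2* (144 nt), 11.3 for *Puf60* (51 nt) and 9.3 for *Dbn1* (138 nt). It was -11.0 for *Syt7* (132 nt), -31.3 for *Rgs8* (129 nt), -26.1 for *Ube2d-ps* (63 nt), -26.0 for *Mical3* (138 nt) and -25.1 for the 30 nt exon with no gene name. The test compares 4 libraries and not mice, and the log odds ratio on which it rests can differ where PSI points do not.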

How the results depend on the processing

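With a read minimum of 50, 79 exons were lower by 10 points in the NesKO at E18, against 123 in the report. With a cutoff of 20 points, E18 gave 95 exons (70 higher, 25 lower), P1 73 (59 and 14), the wild-type libraries 232 (104 and 128), and 22 higher and 2 lower at both stages. With the test on reads added to 10 points these were 99 (74 and 25), 142 (116 and 26), 389 (163 and 226), and 39 and 10. With 1 exon per gene, 81 were lower at E18 and 49 higher at both stages. These settings keep fewer exons by construction. All other counts under a minimum of 10, junction-read PSI, the ratio before correction, the trio with the most skipping reads and the listed zeros kept were within 1.5 times those reported. Of the 84 values of named exons past 10 points, 75 stayed past 10 points in the same direction with PSI from junction reads. All 84 did so with the ratio before correction and with the trio with the most skipping reads. With PSI from junction reads 1 changed sign, the 60 nt exon of *Cacna1c* at chr6:118624573-118624632 (mm9), from -11.4 points at P1 to 4.3, and the cause was not tested. No paired analysis was possible because each group is 1 library, and for the same reason no replicate could be left out. Motif windows in the flanking introns were not run, since intron sequence was not used here.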

Other observations

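Past 10 points in opposite directions at E18 and P1 were 35 of all 6442 cassette exons tested at both stages. Of those, 2 passed the test on reads at both. The frame-preserving exons gave 13 of 2890, and none of these 13 passed at both. Among them, *Micu3*, a regulator of mitochondrial calcium uptake, had PSI of 96.3 in the NesKO, 83.5 in the E18 wild type, 41.2 in the EmxKO and 73.4 in the P1 library labelled wild type for a 39 nt exon, and passed at P1 (adjusted p = 0.011, Fisher's exact test) but not at E18 (0.82). *Dennd4c*, an activator of Rab GTPases, had 94.1, 79.6, 60.2 and 87.0 for a 147 nt exon (0.99 and 0.0047). In *Ubap2l*, a 51 nt exon had PSI of 16.4, 7.5, 23.8 and 12.6 in the same order, while a 75 nt and an overlapping 60 nt form had 16.9, 22.0, 21.2 and 31.3, and 21.2, 25.1, 27.9 and 39.5. These exons were chosen after their values were seen.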
